A study of Mus musculus with 6 samples.

Results

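The Gimap genes encode GTPases of immunity-associated proteins, a family of small GTP-binding proteins made mostly by lymphocytes. All 8 Gimap protein-coding genes that the deposited mouse tables list under the family name with a number were taken: Gimap1, Gimap3, Gimap4, Gimap5, Gimap6, Gimap7, Gimap8 and Gimap9. They are 8 of 46517 gene identifiers in the tables and 8 of 12407 genes with enough counts to be tested. They were chosen by their family name with their counts in the 2 culture conditions already known, and the values that chose them are those of the comparison of conditions, so the differences between conditions given for them are descriptions and carry no test.

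Naive T cells from C57BL/6J mice were activated for 3 days on plates coated with antibody to CD3 (5 µg/mL), with antibody to CD28 (0.5 µg/mL) and IL-2 (100 units/mL), and the libraries are labelled CD8 T cells. In 3 libraries, from day 1 to day 2, the cells were also given medium conditioned by sorted basophils during 2 days of culture with IL-3 (3 ng/mL) and IL-2 (100 units/mL). In the other 3 libraries the basophils had been cultured with PBS in place of IL-3 and with the same IL-2. These groups are called IL-3 supernatant and PBS supernatant. The labels describe no step that takes IL-3 or IL-2 out of the supernatant, and no library without supernatant was analysed here. Whether the 3 replicates of a group were separate mice or cultures is not stated, so each p-value reflects variation among these libraries, and this variation may be technical.

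GIMAP proteins carry an AIG1-type GTPase domain, and several of them sit on membranes of the endoplasmic reticulum, the lysosome or the Golgi apparatus. They are best known for keeping resting and recently activated lymphocytes alive. Loss of Gimap5 empties the peripheral T cell pool in rats and mice, and Gimap1 is needed by mature mouse T and B cells. In human CD4+ T cells, members of the family were reported to be higher with IL-12 and lower with IL-4.

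The 8 genes lie side by side on chromosome 6 (GRCm38), from 48647234 to 48770851, a span of 123618 bases. Their order is Gimap8, Gimap9, Gimap4, Gimap6, Gimap7, Gimap1, Gimap5 and Gimap3. Gimap6 and Gimap3 are on the minus strand and the other 6 on the plus strand. The promoter windows below are shown because neighbouring genes of the cluster had unlike values: Gimap4 and Gimap7 had the lowest ratios of IL-3 to PBS supernatant, Gimap1 a smaller difference, and Gimap5 and Gimap9 overlapped between groups. Windows of Gimap6 and Gimap3, which were also lower, and of Gimap8, which overlapped, are not printed, so the printed windows are a selection. Each window runs 5′ to 3′ from 250 bases before to 50 bases after the RefSeq gene start (build GRCm38.p6), and capitals mark every match to the motifs described in the next paragraph.
Gimap4 (chr6:48684328-48684627, plus strand): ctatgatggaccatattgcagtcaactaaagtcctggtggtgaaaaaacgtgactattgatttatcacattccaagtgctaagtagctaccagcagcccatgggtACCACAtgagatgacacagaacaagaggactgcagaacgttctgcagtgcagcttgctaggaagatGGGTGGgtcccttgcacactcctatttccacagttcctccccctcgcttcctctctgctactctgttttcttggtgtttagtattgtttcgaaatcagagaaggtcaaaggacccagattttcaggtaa
Gimap7 (chr6:48718371-48718670, plus strand): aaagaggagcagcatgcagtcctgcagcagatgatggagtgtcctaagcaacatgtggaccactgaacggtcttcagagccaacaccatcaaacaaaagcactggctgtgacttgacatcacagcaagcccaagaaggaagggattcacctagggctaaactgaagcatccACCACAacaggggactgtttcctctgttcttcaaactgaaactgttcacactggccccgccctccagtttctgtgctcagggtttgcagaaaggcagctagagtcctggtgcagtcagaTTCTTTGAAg
Gimap1 (chr6:48738797-48739096, plus strand): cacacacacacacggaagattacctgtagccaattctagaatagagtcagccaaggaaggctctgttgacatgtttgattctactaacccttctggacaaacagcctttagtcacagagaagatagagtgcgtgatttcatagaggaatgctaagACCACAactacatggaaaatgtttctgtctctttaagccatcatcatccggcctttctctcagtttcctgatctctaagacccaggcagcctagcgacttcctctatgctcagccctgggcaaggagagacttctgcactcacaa
Gimap5 (chr6:48745947-48746246, plus strand): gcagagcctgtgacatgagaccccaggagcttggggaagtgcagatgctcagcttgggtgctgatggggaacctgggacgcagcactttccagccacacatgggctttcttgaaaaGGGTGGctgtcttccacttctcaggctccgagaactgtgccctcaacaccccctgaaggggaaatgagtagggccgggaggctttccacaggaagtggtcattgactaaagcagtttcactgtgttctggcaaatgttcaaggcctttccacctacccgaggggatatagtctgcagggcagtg
Gimap9 (chr6:48675885-48676184, plus strand): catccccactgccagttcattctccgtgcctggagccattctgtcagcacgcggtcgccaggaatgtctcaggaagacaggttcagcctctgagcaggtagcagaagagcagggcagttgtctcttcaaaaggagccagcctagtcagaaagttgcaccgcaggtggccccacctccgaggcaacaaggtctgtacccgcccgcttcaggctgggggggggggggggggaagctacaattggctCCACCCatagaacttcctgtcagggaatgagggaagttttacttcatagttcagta

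The motifs were short core sequences of factor families that act in T cells, searched on both strands in 32851 RefSeq windows of the same length. All 8 members had a window, and Gimap8 had 2 with different starts, which gives 9 windows. The RUNX core TGTGGT was matched in 3 of 9 windows (Gimap4, Gimap7 and Gimap1), each time on the opposite strand as ACCACA. It was matched in 16.8% of all windows. Counting -1 as the base before the start, the RUNX matches begin at -145 in Gimap4, -79 in Gimap7 and -95 in Gimap1. The KLF core CCACCC, or GGGTGG on the other strand, was matched in 5 of 9 windows (Gimap3, Gimap4, Gimap5, Gimap8 and Gimap9) and in 31.5% of all windows. The STAT core TTCNNNGAA was matched in 4 of 9 windows (Gimap3, Gimap6, Gimap7 and Gimap8), against 8.3% of all windows. In Gimap7 the STAT match overlaps the only match among the members to the TCF and LEF core CTTTGAA, which 5.14% of all windows hold. The FOXO core GTAAACA was matched in Gimap3 alone, against 3.65% of all windows. No member window holds the ETS core CCGGAAG, the GATA core AGATAA or the STAT6 form, which has 4 in place of 3 free bases between TTC and GAA. The ETS core is in 8.86% of all windows, the GATA core in 11.2% and the STAT6 form in 6.95%. No motif was matched in the windows of all 5 members with lower values. RUNX had no match in Gimap3 and Gimap6, which were lower too and whose windows are not printed above. Both KLF and STAT matches occur in windows of members that overlapped between groups. Only the fixed forms given here were searched, so a window without a match may hold another form of the same site. These are matches of letters, and nothing was measured about binding at them.

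The libraries held between 19283416 and 22174902 expected counts with IL-3 supernatant and between 17377052 and 18753617 with PBS supernatant. Over all genes the median log2 fold change was -0.00, and 30.9% of the 12407 genes passed edgeR's quasi-likelihood test at an adjusted p under 0.05, with 14.8% higher and 16.1% lower in IL-3 supernatant. All 7 genes of the CD8 T cell list (Cd8a, Cd8b1, Cd3d, Cd3e, Cd3g, Cd247 and Trac) were present. Only Cd8a and Cd8b1 among them set CD8 T cells apart from other T cells. The list summed to 1247 to 1367 normalised counts per 1000000 (CPM) with IL-3 supernatant and 1991 to 2141 CPM with PBS supernatant. Of these 7, 6 were lower and Cd247 was higher by that test. The log2 fold change was -1.17 for Cd8a and -0.42 for Cd8b1. The defining basophil and mast cell markers Mcpt8, Fcer1a, Ms4a2 and Prss34 were at 0 in all 6 libraries, and the whole list of 8 summed to 0.515 to 0.901 CPM with IL-3 supernatant and 2.27 to 3.28 CPM with PBS supernatant. Nearly all of that sum was Kit, and the other 7 genes summed to 0 to 0.0901 CPM with IL-3 supernatant and 0 to 0.0556 CPM with PBS supernatant. NK cell markers summed to at most 0.0901 CPM with IL-3 supernatant and 0.111 CPM with PBS supernatant. The 3 markers of CD4 T cells summed to 17.9 to 19.8 CPM with IL-3 supernatant and 6.44 to 9.29 CPM with PBS supernatant. Nearly all of that sum was Zbtb7b, and without it the sums were 0.36 to 1.04 CPM with IL-3 supernatant and 1.06 to 2.16 CPM with PBS supernatant. Cd4 itself had 0 to 0.495 CPM with IL-3 supernatant and 0.445 to 0.831 CPM with PBS supernatant. The 6 B cell markers summed to 110 to 131 CPM with IL-3 supernatant and 292 to 324 CPM with PBS supernatant. Without Ighm these B cell sums were 2.99 to 3.22 CPM with IL-3 supernatant and 2.78 to 3.77 CPM with PBS supernatant. The 7 myeloid markers summed to 37.8 to 42.5 CPM with IL-3 supernatant and 30.3 to 37.7 CPM with PBS supernatant. Nearly all of that sum was Cst3, with 35.2 to 40.9 CPM with IL-3 supernatant and 27.6 to 36.1 CPM with PBS supernatant. The part of these cell types in the Gimap values was not tested. In bulk RNA, fewer cells that express a gene and less of its RNA in each cell cannot be told apart.

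The family split into 5 genes that were lower in every IL-3 library than in every PBS library and 3 whose groups overlapped. The 5 lower genes were Gimap1, Gimap3, Gimap4, Gimap6 and Gimap7, with ratios of mean CPM from 0.58 to 0.814. The 3 overlapping genes were Gimap5, Gimap8 and Gimap9, and none of the 8 was higher in every IL-3 library. Of all genes tested, the groups of 43.6% did not overlap, 21% being higher and 22.6% lower with IL-3 supernatant. Since the comparison was in view when the members were chosen, nothing is read from their count. The median log2 fold change of the 8 was -0.37. All 8 passed the filter on low counts, with between 351 and 5414 counts per library.

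**Figure D1:**
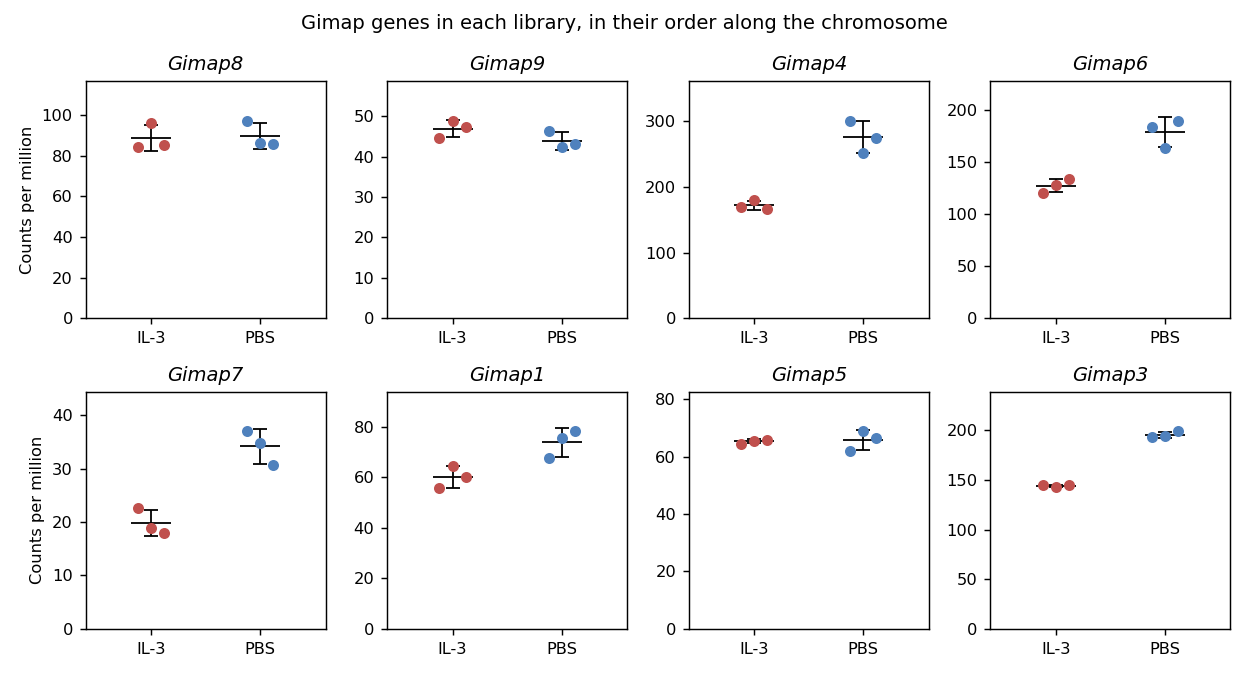
Normalised CPM (vertical axis, from 0) of the 8 Gimap genes in each library, in chromosome order, with IL-3 supernatant on the left and PBS supernatant on the right of each panel. Points are libraries, long bars are means and short bars are ± 1 SD (n = 3 each). Gimap4, Gimap6, Gimap7, Gimap1 and Gimap3 do not overlap between groups, and Gimap8, Gimap9 and Gimap5 do.

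Gimap5 (ENSMUSG00000043505, chr6:48746197-48754210) is the survival factor of the family whose loss causes T cell lymphopenia in rats and mice. It had 64.5, 65.5 and 65.9 CPM in the IL-3 libraries, against 61.9, 68.8 and 66.4 CPM in the PBS libraries. The IL-3 values all lay inside the range of the PBS values. The means were 65.3 ± 0.714 CPM with IL-3 supernatant and 65.7 ± 3.50 CPM with PBS supernatant (SD, n = 3 each), and the log2 fold change was -0.01 (SE 0.07).

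Gimap3 (ENSMUSG00000039264, chr6:48764464-48770851) is the closest mouse relative of Gimap5 and has no functional human counterpart. It had 145, 142 and 145 CPM in the IL-3 libraries, against 193, 194 and 199 CPM in the PBS libraries. Every IL-3 library was lower than every PBS library, and on the log2 scale Gimap3 had the smallest spread within groups of the 8 genes. The means were 144 ± 1.27 CPM with IL-3 supernatant and 195 ± 3.11 CPM with PBS supernatant (SD, n = 3 each), and the log2 fold change was -0.44 (SE 0.05). Transcripts of Gimap3 and Gimap5 share sequence: 7.52% of the 50-base words in Gimap3 transcripts also occur in Gimap5, and 4.53% of those in Gimap5 occur in Gimap3. Both genes, like Gimap1, had expected counts that were not whole in all 6 libraries, so their reads were partly divided among genes or copies. With the counts of Gimap3 and Gimap5 summed, a check chosen after seeing the data, the log2 fold change was -0.32.

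Gimap1 (ENSMUSG00000090019, chr6:48739054-48743795), which mature lymphocytes of mice need to persist, had 55.6, 64.7 and 60.1 CPM in the IL-3 libraries. It had 67.5, 75.8 and 78.2 CPM in the PBS libraries. The groups did not overlap, but the highest IL-3 library and the lowest PBS library were only 2.83 CPM apart. The means were 60.1 ± 4.52 CPM with IL-3 supernatant and 73.8 ± 5.62 CPM with PBS supernatant (SD, n = 3 each), and the log2 fold change was -0.30 (SE 0.08). Of the 50-base words in Gimap1 transcripts, 32.4% lie in Gimap1os, a gene on the opposite strand. Whether reads were counted by strand is not given in the sources used here, so reads of these 2 genes cannot be told apart with certainty. Summed with Gimap1os and Gm28053, in the same kind of check, Gimap1 had a log2 fold change of -0.25.

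Gimap4 (ENSMUSG00000054435, chr6:48684549-48692060) has been linked to the pace of T cell death, and its protein was reported to bind Bax. It had 169, 180 and 167 CPM in the IL-3 libraries, against 301, 252 and 275 CPM in the PBS libraries. All IL-3 values were lower than all PBS values, by 71.4 CPM at the closest. The means were 172 ± 6.98 CPM with IL-3 supernatant and 276 ± 24.8 CPM with PBS supernatant (SD, n = 3 each), and the log2 fold change was -0.68 (SE 0.06). Of all genes tested, 7.42% had a lower log2 fold change.

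Gimap6 (ENSMUSG00000047867, chr6:48701582-48708225) binds the autophagy protein GABARAPL2. It had 121, 128 and 134 CPM in the IL-3 libraries, against 184, 163 and 190 CPM in the PBS libraries. The groups did not overlap, and PBS replicate 2 stood lowest of its group for Gimap6 as for Gimap4. The means were 127 ± 6.60 CPM with IL-3 supernatant and 179 ± 14.0 CPM with PBS supernatant (SD, n = 3 each), and the log2 fold change was -0.49 (SE 0.06).

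Gimap7 (ENSMUSG00000043931, chr6:48718621-48724636) is the relative whose human protein stimulates GTP hydrolysis by GIMAP2. It had 22.6, 18.9 and 17.9 CPM in the IL-3 libraries, against 37.0, 34.9 and 30.7 CPM in the PBS libraries. It had the lowest ratio of the family, 0.58, and on the log2 scale also the largest spread within groups. The means were 19.8 ± 2.47 CPM with IL-3 supernatant and 34.2 ± 3.22 CPM with PBS supernatant (SD, n = 3 each), and the log2 fold change was -0.79 (SE 0.11). Of all genes tested, 6.17% had a lower log2 fold change.

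Gimap8 (ENSMUSG00000064262, chr6:48647234-48660875), the largest protein of the family with several GTPase domains in a row, had 84.5, 96.1 and 85.4 CPM in the IL-3 libraries. It had 97.3, 86.1 and 85.9 CPM in the PBS libraries. The groups overlapped, with 1 high library in each. The means were 88.7 ± 6.46 CPM with IL-3 supernatant and 89.8 ± 6.54 CPM with PBS supernatant (SD, n = 3 each), and the log2 fold change was -0.02 (SE 0.07).

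Gimap9 (ENSMUSG00000051124, chr6:48676129-48679114), another GTPase of the cluster, had 44.6, 48.9 and 47.3 CPM in the IL-3 libraries, against 46.5, 42.3 and 43.1 CPM in the PBS libraries. The groups overlapped through IL-3 replicate 1 and PBS replicate 1. The means were 47.0 ± 2.17 CPM with IL-3 supernatant and 44.0 ± 2.19 CPM with PBS supernatant (SD, n = 3 each), and the log2 fold change was 0.10 (SE 0.08). No 50-base word of Gimap4, Gimap8 or Gimap9 occurs in another gene's transcripts, and the counts of Gimap4, Gimap6, Gimap7, Gimap8 and Gimap9 were whole in all libraries.

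The values are given here in chromosome order, as a description. Gimap8 and Gimap9, at one end of the cluster, overlapped between groups. The next 4 genes, Gimap4, Gimap6, Gimap7 and Gimap1, were all lower with IL-3 supernatant. Gimap5, separated from Gimap1 by 2401 bases, overlapped between groups, and Gimap3, the last gene, was again lower. Both minus-strand genes were lower, as were 3 of the 6 plus-strand genes.

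**Figure D2:**
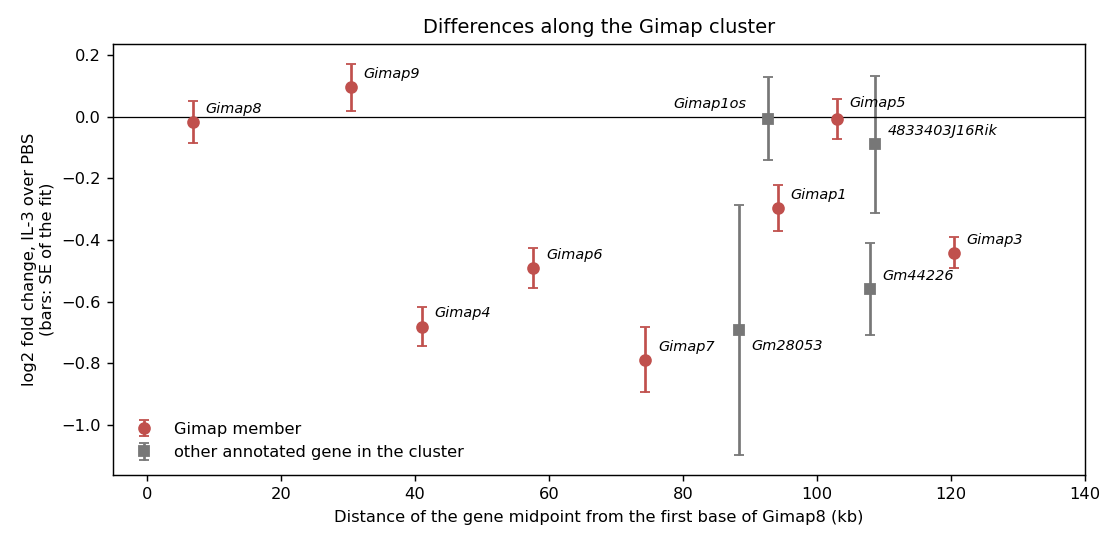
Log2 fold change, IL-3 over PBS supernatant (vertical axis, bars ± SE of the edgeR fit), against the distance of each gene's midpoint from the first base of Gimap8 in kilobases (horizontal axis). Circles are the 8 Gimap genes and squares the 4 other tested genes inside the cluster. Gimap5, at -0.01, sits between Gimap1 at -0.30 and Gimap3 at -0.44.

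Genes around and between the Gimap genes were not used to choose them, so they could be tested. Gimap1os and Gm28053, which are among them, share sequence with members, so their counts are not fully separate from those of the members. Within 1000000 bases of the cluster, 26 of 77 annotated non-member genes had enough counts, and 5 passed edgeR's test, or 19.2%, against 30.9% of all genes. Their median log2 fold change was 0.04. The largest difference was that of Igf2bp3, an RNA-binding protein mostly known from fetal tissue, which lies 314372 bases beyond the cluster. It averaged 15.8 ± 0.754 CPM with IL-3 supernatant and 6.70 ± 0.657 CPM with PBS supernatant (SD, n = 3 each), and the log2 fold change was 1.24, with an SE of 0.13 and an edgeR adjusted p of 1.2e-06. Zfp862-ps, a transcribed pseudogene 112402 bases before the cluster, was the other higher gene, with 14.2 ± 1.69 CPM in IL-3 libraries and 10.0 ± 2.30 CPM in PBS libraries (SD, n = 3 each; log2 fold change 0.50, SE 0.16, edgeR adjusted p = 0.0253). Zfp746, a zinc finger protein 560641 bases before the cluster, was lower, with a log2 fold change of -0.27, with an SE of 0.08 and an edgeR adjusted p of 0.017. Pdia4, a chaperone of the endoplasmic reticulum 833804 bases before it, was lower, with a log2 fold change of -0.20, with an SE of 0.06 and an edgeR adjusted p of 0.0224. The fifth gene was inside the cluster. The call of Igf2bp3 held without each library in turn, but the count of 5 dropped to 3 without IL-3 replicate 2 and to 3 without PBS replicate 3. Zfp862-ps missed the threshold without IL-3 replicate 1 (edgeR adjusted p = 0.116), IL-3 replicate 3 (0.0853), PBS replicate 1 (0.0505) or PBS replicate 3 (0.121). Zfp746 missed it without IL-3 replicate 2 (edgeR adjusted p = 0.0700) or IL-3 replicate 3 (0.0531). Pdia4 missed it without IL-3 replicate 2 (edgeR adjusted p = 0.132), IL-3 replicate 3 (0.0821), PBS replicate 2 (0.154) or PBS replicate 3 (0.0629). The nearest tested genes outside the cluster did not pass: AI854703, 13545 bases before it, had a log2 fold change of 0.78, with an SE of 0.36 and an edgeR adjusted p of 0.115, and Malsu1, 302944 bases after it, 0.26 (SE 0.11, edgeR adjusted p = 0.077). Malsu1 passed without IL-3 replicate 2 (edgeR adjusted p = 0.0493).

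Inside the cluster, 4 other annotated genes had enough counts. Gm44226, a long intergenic noncoding RNA between Gimap5 and Gimap3 (chr6:48754230-48755986, minus strand), had 8.96, 6.75 and 9.19 CPM in the IL-3 libraries, against 13.6, 12 and 11 CPM in the PBS libraries. All IL-3 values were lower than all PBS values, and the log2 fold change was -0.56, with an SE of 0.15 and an edgeR adjusted p of 0.00853. Without IL-3 replicate 2, its lowest library, the log2 fold change was -0.41 and the edgeR adjusted p 0.0544. 4833403J16Rik, which overlaps Gm44226 on the other strand, averaged 4.49 ± 0.969 CPM with IL-3 supernatant and 4.80 ± 0.965 CPM with PBS supernatant (SD, n = 3 each; edgeR adjusted p = 0.806). Gimap1os, opposite Gimap1, averaged 15.5 ± 1.81 CPM with IL-3 supernatant and 15.5 ± 2.76 CPM with PBS supernatant (SD, n = 3 each), and the log2 fold change was -0.01, with an SE of 0.13 and an edgeR adjusted p of 0.979. Gm28053, whose annotated span runs from Gimap7 to Gimap5 and which shares sequence with Gimap1, Gimap5 and Gimap7, had a log2 fold change of -0.69, with an SE of 0.41 and an edgeR adjusted p of 0.225. Since strand counting is not stated, the values of genes that overlap on opposite strands are uncertain.

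Levels of different genes can be compared only per transcript length, for which the deposited TPM, in which the transcripts of a library sum to 1000000, were used. Gimap4 was the most abundant member in every library, with 196, 205 and 193 TPM in the IL-3 libraries, against 350, 271 and 312 TPM in the PBS libraries. Gimap6 came second in all 6 libraries, followed by Gimap3. Gimap6 averaged 147 ± 8.22 TPM with IL-3 supernatant and 201 ± 18.7 TPM with PBS supernatant (SD, n = 3 each). Gimap3 averaged 133 ± 1.97 TPM with IL-3 supernatant and 177 ± 7.44 TPM with PBS supernatant (SD, n = 3 each). Gimap7 was the least abundant in every library, at 30.7 ± 3.81 TPM with IL-3 supernatant and 52.0 ± 5.28 TPM with PBS supernatant (SD, n = 3 each).

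The middle of the order differed between groups. Gimap5 was above Gimap1 in all 3 IL-3 libraries and below it in all 3 PBS libraries. Gimap5 had 104, 101 and 112 TPM in the IL-3 libraries, against 90.4, 99.1 and 106 TPM in the PBS libraries. Gimap1 had 76.9, 87.9 and 86.2 TPM in the IL-3 libraries, against 97.1, 100 and 112 TPM in the PBS libraries. The TPM ranges of these 2 genes were apart with IL-3 supernatant and overlapped with PBS supernatant. Gimap9 averaged 69.6 ± 3.13 TPM with IL-3 supernatant and 64.0 ± 5.19 TPM with PBS supernatant (SD, n = 3 each). Gimap8 averaged 63.1 ± 3.83 TPM with IL-3 supernatant and 63.1 ± 5.92 TPM with PBS supernatant (SD, n = 3 each). Gimap9 and Gimap8 overlapped in both groups. Gimap6 and Gimap3 overlapped with PBS supernatant and were apart with IL-3 supernatant. Apart from these pairs and Gimap5 with Gimap1, neighbours in the order had separate ranges in each group.

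**Figure D3:**
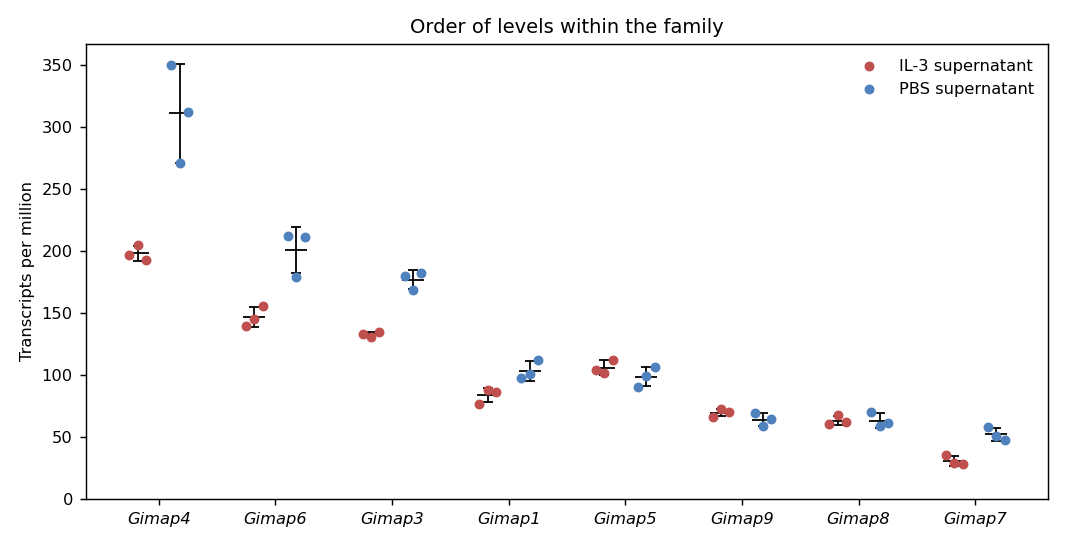
Levels per transcript length in TPM (vertical axis, from 0) of the 8 genes, ordered by their mean with PBS supernatant, with IL-3 supernatant to the left of PBS supernatant for each gene. Points are libraries and bars are means ± 1 SD (n = 3 each). Gimap5 averages 106 TPM with IL-3 supernatant, above Gimap1 at 83.7 TPM, and 98.5 TPM with PBS supernatant, below Gimap1 at 103 TPM.

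Summed over the family, the levels were 811, 839 and 841 TPM in the IL-3 libraries, against 1126, 986 and 1095 TPM in the PBS libraries. The make-up of that sum follows from the values of the members given above and is no separate result. Gimap4 gave 23.9 ± 0.817% of it with IL-3 supernatant and 29.0 ± 1.88% with PBS supernatant (SD, n = 3 each). Gimap5, Gimap8 and Gimap9 together gave 28.4%, 28.8% and 29.0% in the IL-3 libraries, against 20.4%, 21.9% and 21.1% in the PBS libraries. Among all genes of a library, 830 had a higher TPM than Gimap4 in IL-3 replicate 1 and 409 in PBS replicate 1. Only these 2 libraries were ranked in this way. PBS replicate 1 had the highest Gimap4 level of the PBS libraries, 350 TPM against 271 and 312 TPM. Values of PBS replicate 2 were summed from the authors' isoform table, since its TPM table is per isoform.

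That isoform table shows which transcripts the gene values rest on in PBS replicate 2. For most members 1 protein-coding isoform dominated. It gave 97.4% of the TPM of Gimap7, 92.9% of Gimap9, 91.5% of Gimap3, 90.2% of Gimap4, 88.7% of Gimap6 and 79.7% of Gimap1. Gimap8 was divided between 2 protein-coding isoforms, with 74.9% and 24.9%. Gimap5 was the exception: its protein-coding isoform gave 45.7% of its TPM, and 2 short processed transcripts without an open reading frame in the annotation gave 26.9% and 21.6%. The place of Gimap5 in the order by TPM therefore includes transcripts that are not annotated as coding, and the isoforms of the other 5 libraries were not analysed here.

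Library-to-library deviations within groups were in the same direction for some pairs of members and opposite for others. Over the 28 pairs of members, the correlation of log2 CPM deviations from the group mean ran from -0.87 (Gimap4 with Gimap5) to 0.90 (Gimap8 with Gimap9), with a median of -0.03 and 13 pairs above 0. Each correlation uses 6 libraries that share their group means and depth, so these values are descriptions. Gimap4 had values of 0.83 with Gimap8 and 0.82 with Gimap9, although Gimap4 was lower with IL-3 supernatant and the other 2 overlapped. With Gimap5 the value of Gimap8 was -0.60 and that of Gimap9 -0.60. PBS replicate 1 was the highest PBS library for Gimap4, Gimap7, Gimap8 and Gimap9, and IL-3 replicate 2 the highest IL-3 library for Gimap1, Gimap4, Gimap8 and Gimap9. Mitochondrial genes held 2.13%, 2.73% and 2.16% of counts in the IL-3 libraries, against 3.2%, 2.18% and 2.2% in the PBS libraries, so the same 2 libraries were highest there, and the part of this in the deviations was not tested. The pooled SD of the deviations was lowest for Gimap3, at 0.019 on the log2 scale, and highest for Gimap7, at 0.157.

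**Figure D4:**
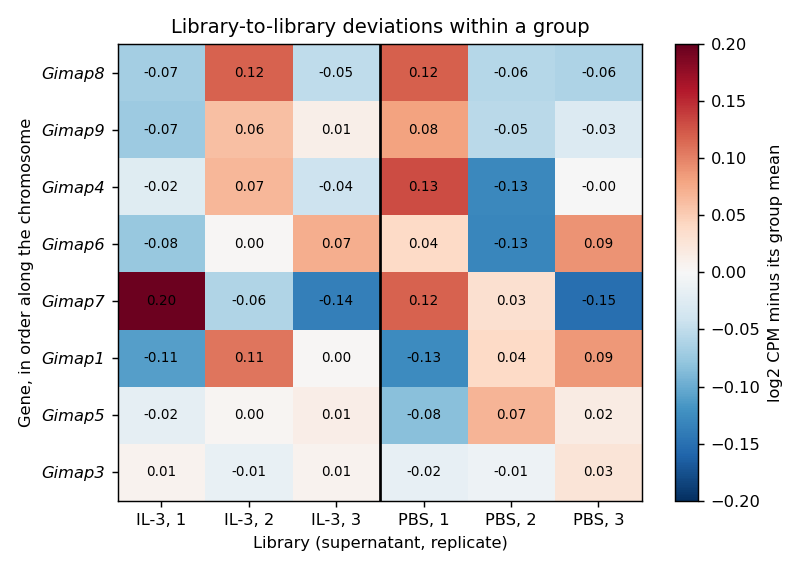
Deviation of each gene's log2 CPM from its group mean (colour and printed value) for the 8 genes in chromosome order (rows) and the 6 libraries (columns, IL-3 supernatant left of the line, PBS supernatant right). Gimap8 and Gimap9 deviate in like manner (r = 0.90), while Gimap4 and Gimap5 deviate in opposite directions (r = -0.87).

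Genes tied to what GIMAP proteins do were read out from the same edgeR fit. Of 8 BCL2-family survival and death proteins, 1 was higher, 2 were lower and 5 did not pass, with a median log2 fold change of 0.02 against -0.00 over all genes. That is 37.5% called, against 30.9% of all genes. Bcl2, a survival protein reported to bind Gimap3 and Gimap5, fell to 201 ± 14.4 CPM with IL-3 supernatant, against 280 ± 34.0 CPM with PBS supernatant (SD, n = 3 each; log2 fold change -0.48, SE 0.08, edgeR adjusted p = 0.00115). The survival protein Bcl2l1 rose, at 282 ± 17.5 CPM with IL-3 supernatant and 200 ± 0.507 CPM with PBS supernatant (SD, n = 3 each; log2 fold change 0.49, SE 0.06, edgeR adjusted p = 2.8e-06). The death activator Bcl2l11 fell, at 17.7 ± 0.417 CPM with IL-3 supernatant and 69.6 ± 0.905 CPM with PBS supernatant (SD, n = 3 each; log2 fold change -1.97, SE 0.08, edgeR adjusted p = 5.8e-12). Bax, the reported partner of Gimap4, had 106 ± 8.45 CPM with IL-3 supernatant and 93.3 ± 7.99 CPM with PBS supernatant (SD, n = 3 each), and the log2 fold change was 0.18 (SE 0.07) that did not pass (edgeR adjusted p = 0.0795). Bax passed without IL-3 replicate 1 (edgeR adjusted p = 0.0441), with library sizes alone (0.0491) or with no filter on low counts (0.0285). The death effector Bak1 had a log2 fold change of 0.15, with an SE of 0.06 and an edgeR adjusted p of 0.0543. Bak1 passed with DESeq2's size factors (edgeR adjusted p = 0.0459), with library sizes alone (0.0459), with a filter of 1 CPM in 3 libraries (0.0486) or without the abundant transcript CT010467.1 (0.0472), the last chosen after seeing the data.

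Of 12 autophagy genes, 1 was higher, 2 were lower and 9 did not pass, with a median log2 fold change of 0.00; that is 25% called, against 30.9% of all genes. Gabarapl2, the partner of Gimap6, had 52.1 ± 4.13 CPM with IL-3 supernatant and 47.0 ± 3.79 CPM with PBS supernatant (SD, n = 3 each; log2 fold change 0.15, SE 0.08, edgeR adjusted p = 0.2). Atg5 and Atg7, which attach the GABARAP family to membranes, fell, with log2 fold changes of -0.33 and -0.40 (SE 0.08 and 0.10, edgeR adjusted p = 0.00465 and 0.00483). The cargo receptor Sqstm1 rose by 0.19 (SE 0.07, edgeR adjusted p = 0.0334). Sqstm1 missed the threshold without IL-3 replicate 1 (edgeR adjusted p = 0.165), IL-3 replicate 3 (0.0684), PBS replicate 1 (0.0601) or PBS replicate 3 (0.131). The initiating kinase Ulk1 had a log2 fold change of -0.20, with an SE of 0.08 and an edgeR adjusted p of 0.0728. Of 5 genes around GSK3, a kinase that Gimap5 limits in mouse T cells, only Ctnnb1, which encodes beta-catenin, passed. It fell to 238 ± 7.99 CPM with IL-3 supernatant, against 286 ± 10.3 CPM with PBS supernatant (SD, n = 3 each; log2 fold change -0.27, SE 0.05, edgeR adjusted p = 0.000857). Gsk3b had 80.3 ± 1.45 CPM with IL-3 supernatant and 84.1 ± 9.78 CPM with PBS supernatant (SD, n = 3 each; log2 fold change -0.07, SE 0.07, edgeR adjusted p = 0.542), and its sign turned without PBS replicate 1 (log2 fold change 0.0244). Its relative Gsk3a had a log2 fold change of 0.11 (edgeR adjusted p = 0.174) and the scaffold Apc of 0.10 (edgeR adjusted p = 0.269). The median of these 5 genes was -0.04, and 20% were called, against 30.9% of all genes.

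Of 16 genes of resting T cells, a state in which Gimap genes are highly expressed, 4 were higher, 6 were lower and 6 did not pass, with a median log2 fold change of -0.07. Klf2, a factor of T cell quiescence, fell to 0.750 ± 0.391 CPM with IL-3 supernatant, against 11.2 ± 1.77 CPM with PBS supernatant (SD, n = 3 each; log2 fold change -3.91, SE 0.28, edgeR adjusted p = 2.0e-08). Btg1, a regulator of mRNA decay, fell by 0.87 on the log2 scale (SE 0.06, edgeR adjusted p = 1.8e-08). Tcf7, a factor of naive and memory T cells, fell by 0.56 (SE 0.06, edgeR adjusted p = 2.2e-06). Satb1, a chromatin organiser, rose, at 803 ± 12.9 CPM with IL-3 supernatant and 252 ± 13.4 CPM with PBS supernatant (SD, n = 3 each; log2 fold change 1.67, SE 0.05, edgeR adjusted p = 7.4e-13). Of the list, 62.5% of genes passed, in both directions, against 30.9% of all genes.

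All 11 genes of the IL-12 and type 1 list passed, 6 higher and 5 lower, with a median log2 fold change of 0.29. That is 100% called, against 30.9% of all genes. Stat4, which carries the IL-12 signal, rose to 240 ± 15.0 CPM with IL-3 supernatant, against 179 ± 9.22 CPM with PBS supernatant (SD, n = 3 each; log2 fold change 0.42, SE 0.06, edgeR adjusted p = 3.6e-05). Ifng rose by 0.96 on the log2 scale (SE 0.05, edgeR adjusted p = 7.4e-10), and the IL-18 receptor genes Il18r1 and Il18rap fell, with log2 fold changes of -2.33 and -2.41 (SE 0.08 each, edgeR adjusted p = 2.2e-12 and 2.1e-12). Eomes, a factor of effector and memory CD8 T cells, fell by 1.86 (SE 0.10, edgeR adjusted p = 3.1e-10). Of 12 genes of the IL-4 and type 2 list, 11 had enough counts, of which 9 were higher, 1 was lower and 1 did not pass, with a median of 3.06 and 90.9% called. Gata3, the type 2 lineage factor, rose to 106 ± 7.51 CPM with IL-3 supernatant, against 12.7 ± 1.51 CPM with PBS supernatant (SD, n = 3 each; log2 fold change 3.06, SE 0.09, edgeR adjusted p = 3.0e-13). The chemokine receptors Ccr4 and Ccr8 rose by 1.37 and 4.95 on the log2 scale (SE 0.06 and 0.16, edgeR adjusted p = 5.8e-11 and 7.4e-13), and the hypoxia factor Epas1 rose by 4.52 (SE 0.20, edgeR adjusted p = 3.6e-11). Stat6, which carries the IL-4 signal, had 191 ± 4.72 CPM with IL-3 supernatant and 197 ± 4.49 CPM with PBS supernatant (SD, n = 3 each; log2 fold change -0.05, SE 0.05, edgeR adjusted p = 0.548).

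Of 8 Notch pathway genes, 7 had enough counts, of which 1 was higher, 2 were lower and 4 did not pass, with a median log2 fold change of -0.07 and 42.9% called, against 30.9% of all genes. Notch signalling was reported to raise GIMAP5 in human leukaemic T cells. Notch1 had 268 ± 14.0 CPM with IL-3 supernatant and 276 ± 12 CPM with PBS supernatant (SD, n = 3 each; log2 fold change -0.05, SE 0.06, edgeR adjusted p = 0.59), and without IL-3 replicate 2 its log2 fold change was 0.00124. Rbpj, the DNA-binding partner of Notch, rose to 1230 ± 15.8 CPM with IL-3 supernatant, against 658 ± 70.4 CPM with PBS supernatant (SD, n = 3 each; log2 fold change 0.90, SE 0.07, edgeR adjusted p = 3.4e-08). The receptor Notch2 fell by 0.36 on the log2 scale (SE 0.05, edgeR adjusted p = 5.5e-05). Myc, a Notch target in T cells, fell by 0.22 (SE 0.06, edgeR adjusted p = 0.00876), and missed the threshold without IL-3 replicate 2 (edgeR adjusted p = 0.0656) or PBS replicate 2 (0.0518). The feedback regulator Nrarp had a log2 fold change of -0.49, with an SE of 0.43 and an edgeR adjusted p of 0.441. Over the 7 lists together, 22 of 70 tested genes were higher, 19 lower and 29 did not pass, with a median of 0.01 and 58.6% called, against 30.9% of all genes. The lists were chosen with results of these data known, and nothing is read from these shares.

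**Figure D5:**
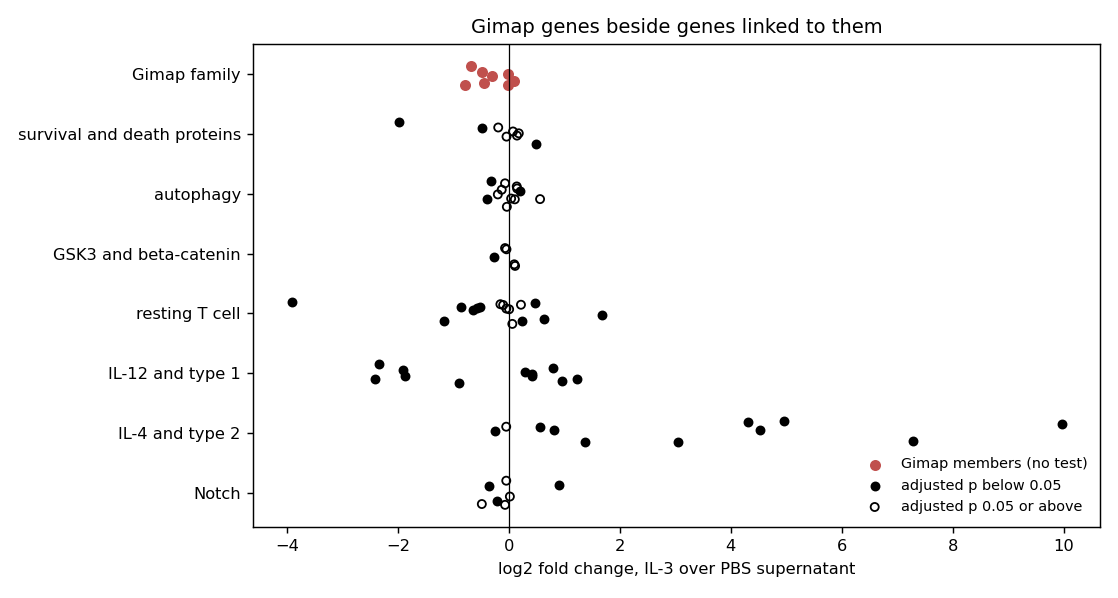
Log2 fold change, IL-3 over PBS supernatant (horizontal axis), of single genes in the Gimap family and in 7 gene lists (rows; vertical scatter within a row has no meaning). Filled black points have an edgeR adjusted p below 0.05, open points do not, and the Gimap genes in red are shown without a test. The Gimap genes lie between -0.79 and 0.10, and the IL-4 and type 2 list reaches farthest to the right.

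The genes whose pattern over the 6 libraries was most like that of the family were found by the root mean square difference of centred log2 CPM from the members' median profile, among 9723 non-member genes. They were Wdr37 (difference 0.0113), Gtf3c5 (0.0233), Cmtm6 (0.0236), Atp1b3 (0.0238) and Casp2 (0.0269). Wdr37 had 33.5, 35.0 and 34.9 CPM in the IL-3 libraries, against 43.7, 43.2 and 45.6 CPM in the PBS libraries. The groups of Wdr37 did not overlap, and its log2 fold change was -0.36, near the members' median of -0.37. The profile includes the difference between groups, so a like fold change follows from the search and is no separate result. The median profile of a split family is not that of any 1 member.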

How the data were processed

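Gene expression was measured by poly(A) RNA-seq in 6 libraries, grouped by their labels. Per the submitters' processing notes, RSEM 1.2.12, Bowtie2 2.2.0 and edgeR 3.20.9 were used with GRCm38; their roles, the annotation and the strand setting are not stated there. The authors deposited expected counts per gene, which divide reads shared by several genes and were rounded to whole numbers here. The authors also deposited TPM, scaled for transcript length and library, per gene for 5 libraries and per isoform for PBS replicate 2 (99.7% of its isoform TPM were matched to a gene).

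The members and all gene lists were chosen with earlier results of these data known. Counts were fitted with edgeR 4.0.16 in R 4.3.3 (filterByExpr, TMM, robust quasi-likelihood, group as the only term), with Benjamini-Hochberg adjustment over 12407 genes and a threshold of 0.05. The script was first tested on simulated counts. Log2 fold changes are IL-3 over PBS supernatant, CPM use TMM-scaled totals, and log2 CPM a prior count of 2. Alternatives used DESeq2 1.42.0 and limma 3.58.1, with limma also on log2(TPM + 1) and log2(TPM + 0.1), a scale that understates changes of low genes. Shared 50-base words and coordinates came from the GENCODE M21 annotation, and promoters from RefSeq.

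Named genes are all members, the called neighbours and the nearest on each side, the 4 genes of each list with the smallest p, 9 genes with a reported link to the family, and the 5 most similar genes with average log2 CPM of at least 2. No 2 libraries of the same group agreed within sampling noise. Deviations of same-numbered replicates had correlations of -0.15, 0.05 and 0.25, and those of differently numbered ones ran from -0.28 to 0.26. With 3 libraries a group, these values cannot show whether the numbers pair the samples.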

Additional observations from a re-analysis of the deposited data

How the results depend on the processing

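The main choices were tried against 19 others. Over them the log2 fold changes of the members ran from -0.74 to -0.61 for Gimap4, -0.89 to -0.72 for Gimap7, -0.54 to -0.44 for Gimap6, -0.45 to -0.41 for Gimap3, -0.36 to -0.24 for Gimap1, -0.05 to 0.11 for Gimap5, -0.07 to 0.04 for Gimap8 and 0.06 to 0.14 for Gimap9. The signs of Gimap5 and Gimap8 thus depended on the setting. Over all genes, 1834 were called higher and 2001 lower. With limma on log2(TPM + 1) over 5 libraries these were 1096 and 1325, with a pseudocount of 0.1 they were 1095 and 1280, and with no filter 636 and 826. The 5 called neighbours became 1 in each of these 3 settings and 2 with TPM over 6 libraries; the cause was not tested. Leaving out each library in turn gave 1456 to 1916 genes higher, 1601 to 2102 lower, 3 to 6 neighbours, 19 to 22 list genes higher and 18 to 20 lower. The replicate block gave 1634 higher and 1776 lower, 4 neighbours, and 21 higher and 19 lower list genes; under the block Pdia4 and Sqstm1 missed the threshold (edgeR adjusted p = 0.0539 and 0.0668). IL-3 replicate 1 correlated best with PBS replicate 2, not with its own number. Igf2bp3 had a log2 fold change of 0.78 on the log2(TPM + 1) scale, against 1.24 in counts. Of the results of the named genes other than the members under the alternatives, 708 kept their side of the threshold and their direction, 42 lost the call and 8 gained one. In 2, both without a call, the sign turned: leaving out each library in turn, the log2 fold change ran from -0.13 to 0.0244 for Gsk3b, the highest without PBS replicate 1, and from -0.0853 to 0.00124 for Notch1, the highest without IL-3 replicate 2. Leaving out CT010467.1, an outlying transcript with 0.433% to 4.51% of a library's counts, and summing overlapping genes were chosen after seeing the data and moved no count by over 1.5 times. With 3 libraries a group and 351 counts for the lowest member value, precision rests on few libraries.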
